A study of Homo sapiens with 3 samples.

Results

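The genes described here serve the endoplasmic reticulum (ER), the compartment in which secreted and membrane proteins are made, and its stress response. They are 53 listed genes in 7 role groups, chosen by name and matched to the table through GENCODE release 29 symbols. All 53 were among the 15808 genes of the count table. The values come from 3 RNA sequencing libraries of the cell line OCI-Ly10, an established human diffuse large B cell lymphoma line, labelled as 6 h with MZ1. The design text speaks of 4 lymphoma lines and the treatment protocol of 6 h and 14 days, so the time is taken from each library's own label, and no other line or time was analysed here. MZ1 is a degrader compound with an arm that binds BET bromodomain proteins and another that recruits the VHL ubiquitin ligase. The labels name no dose and give 1 group, and no untreated library was analysed here, so the values below are levels in treated cells and differences between libraries, not effects of MZ1. Nothing in the labels says whether the replicates were separate cultures, so the p-values speak only for the spread among these 3 libraries, and that spread may be technical.

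Proteins bound for secretion carry a signal sequence that the signal recognition particle brings to the Sec61 channel. Inside the ER the signal is cut off by the signal peptidase, sugar chains are added by the oligosaccharyltransferase, and chaperones and disulphide isomerases fold the chain. Proteins that fail to fold are returned to the cytosol and destroyed by ER-associated degradation, and an excess of them sets off the unfolded protein response through the sensors encoded by ERN1, ATF6 and EIF2AK3. Cells of the B lineage enlarge this machinery when they turn into antibody-secreting plasma cells.

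Several promoters of these genes hold the short DNA motifs through which the unfolded protein response is known to act, and the stretches are shown because the genes that carry them lie at very different levels in these cells. Of the 53 genes, 47 matched a RefSeq promoter (GRCh38.p14), which runs from 250 bases before to 50 bases after a transcription start. On either strand, exact matches were sought to ERSE (CCAAT and CCACG with 9 bases between them), ERSE-II (ATTGG and CCACG with 1 base between them), UPRE (TGACGTGG) and CARE, an element bound by ATF4 with its partners (TGATGNAA). ERSE was found at CALR, CANX, CRELD2 and PDIA6, and in 0.0916% of the 27305 genes with a promoter. ERSE-II was found at HERPUD1, HYOU1 and SDF2L1, and in 0.0696% of all genes. UPRE was found at HYOU1, SEC62, SSR3, SSR4 and VCP (0.927% of all genes) and CARE at CHAC1, HERPUD1 and SRPRB (4.46%). At HYOU1 the UPRE match and the farther ERSE-II match overlap. The stretches read 5′ to 3′ on the strand of the gene, and capitals mark the match to the motif or its reverse complement. By the GENCODE v29 annotation the stretches at CALR, HYOU1, HERPUD1 and SDF2L1 lie outside any gene, that at CRELD2 is intronic, and those at VCP and CHAC1 overlap an annotated exon of the same gene.
CALR, ERSE, chr19:12938373-12938413, plus strand: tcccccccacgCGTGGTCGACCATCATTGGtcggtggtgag
CRELD2, ERSE, chr22:49918543-49918583, plus strand: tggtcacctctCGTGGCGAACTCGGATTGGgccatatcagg
HYOU1, ERSE-II, chr11:119057369-119057401, minus strand: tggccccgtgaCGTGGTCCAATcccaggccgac
HYOU1, ERSE-II nearer the start, chr11:119057263-119057295, minus strand: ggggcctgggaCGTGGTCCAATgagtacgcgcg
HERPUD1, ERSE-II, chr16:56932014-56932046, plus strand: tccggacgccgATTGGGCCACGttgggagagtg
SDF2L1, ERSE-II, chr22:21642103-21642135, plus strand: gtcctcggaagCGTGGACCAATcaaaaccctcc
VCP, UPRE, chr9:35072796-35072825, minus strand: ttgcggccaatTGACGTGGcgttactaggc
CHAC1, CARE, chr15:40953251-40953280, plus strand: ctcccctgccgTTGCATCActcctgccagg
HERPUD1, CARE, chr16:56931955-56931984, plus strand: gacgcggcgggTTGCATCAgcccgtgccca

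Library totals were 5474462, 1441246 and 1314812 counts in replicates 1, 2 and 3, so 1 count was worth 0.20, 0.629 and 0.767 CPM, the count relative to the TMM-scaled library size. A count of 0 would allow up to 0.60, 1.89 and 2.30 CPM (3 counts). Levels of different genes are compared only as CPM per kb of merged exons. All 6 B cell markers reached 1 CPM in every library, with mean levels from 3.72 CPM per kb for CD22 (8.67, 1.63 and 0.872, so mostly from replicate 1) to 375 for CD79A. The 2 monocyte markers LYZ and CSF1R summed to at most 8.20 CPM in any library. A chi-square test asked of each gene whether its 3 counts departed from equal expression, with Benjamini-Hochberg adjustment over every gene whose mean count was 10 or more and a threshold of 0.05. It sets the differences between libraries against counting error alone, with reads taken as independent molecules, so a call says that libraries differ by more than counting error and not that conditions do. By edgeR's common dispersion the coefficient of variation between the libraries beyond counting error was 39.0%. Without replicates 1, 2 and 3 in turn it was 30.2%, 38.8% and 47.6%. Across all 3 libraries the chi-square test called 67.2% of the 10016 genes tested. It called 33.8% of 8447 without replicate 1, 45.2% of 10388 without replicate 2 and 56.2% of 10488 without replicate 3.

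ER genes were well represented in the treated cells. Of the 53 genes, 51 reached 1 CPM in every library (68% of all genes in the table did), and 46 had a mean CPM per kb above 4.15, the median of the 10699 genes of known length that reached 1 CPM in every library. Their summed share of all counts was 0.957%, 1.08% and 1.07% in replicates 1, 2 and 3. The chi-square test called 42 of the 50 genes tested as differing between libraries. It called 21 of 50 without replicate 1, 36 of 51 without replicate 2 and 35 of 51 without replicate 3. These are to be read against the shares of all genes just given, but the test calls more genes at higher counts. Among genes with a mean count of 50 or more it called 41 of 46 ER genes and 81.1% of 5707 genes in all. The 2 genes that missed 1 CPM were SDF2L1 and CHAC1. By role, median levels of ER folding genes (50.03, 43.9 and 61.5 CPM per kb in replicates 1, 2 and 3) and of signal recognition particle genes (39.5, 51.4 and 45.5) were the highest of the 7 groups in 2 and 1 of the 3 libraries respectively. The unfolded protein response group had the lowest median in every library, at 3.50, 4.14 and 2.82 CPM per kb.

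**Figure D1:**
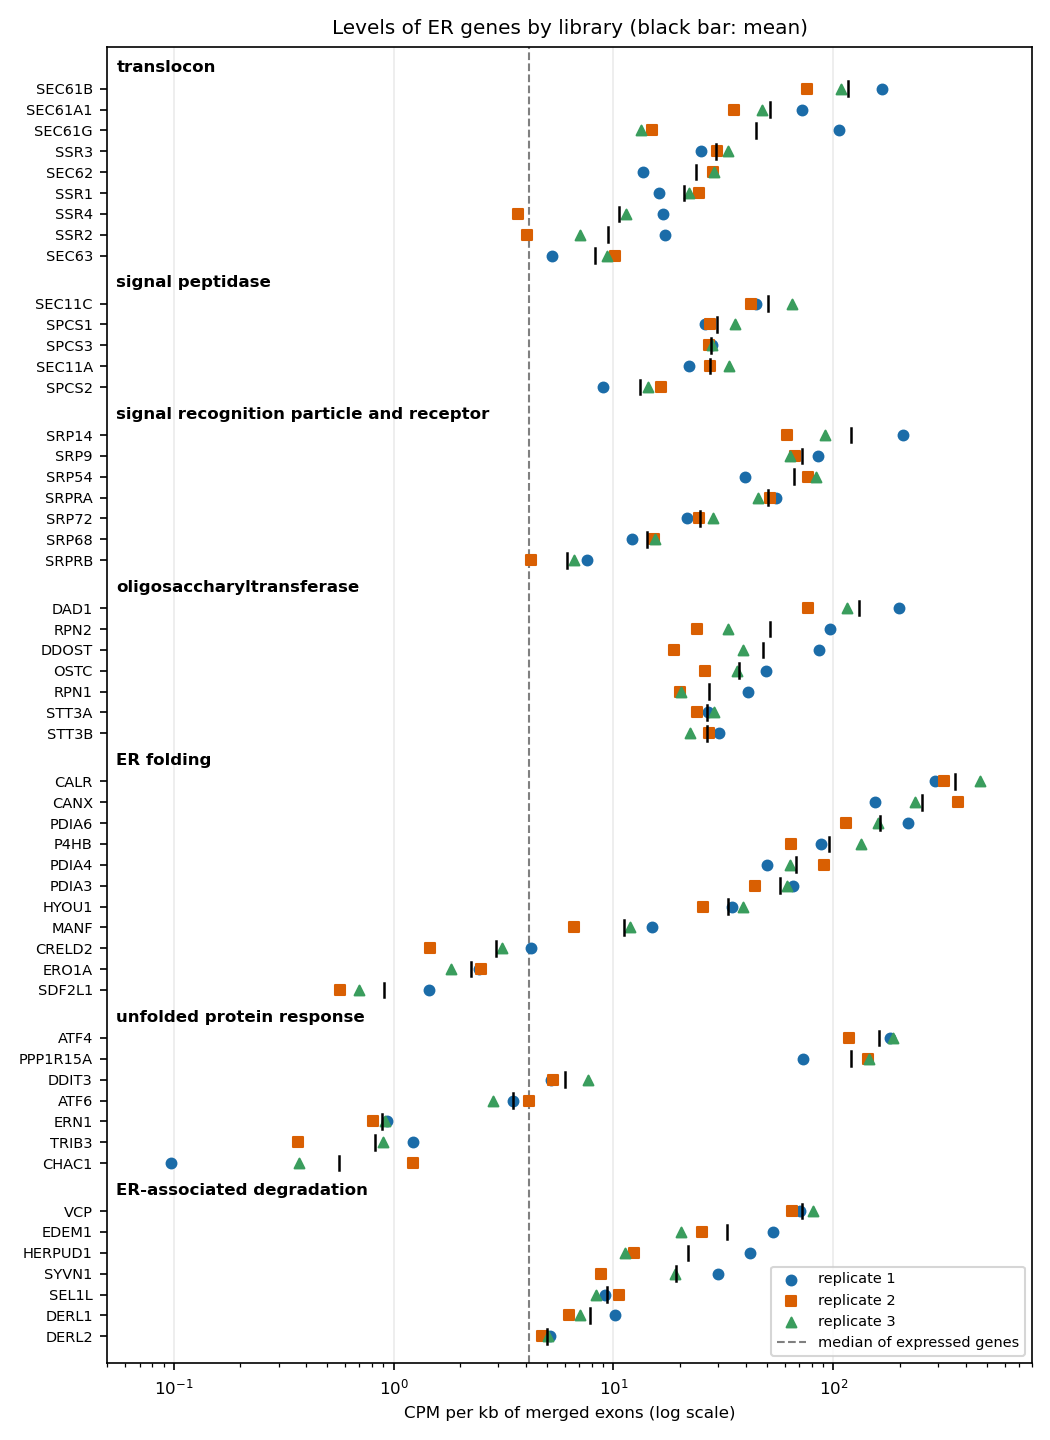
Level of each of the 53 genes in each library, as CPM per kb of merged exons on a log axis, grouped by role and ordered by mean (black bar); the dashed line is the median of genes at 1 CPM or more in every library, 4.15. All translocon, signal peptidase, signal recognition particle, oligosaccharyltransferase and ER-associated degradation genes have means right of the line, whereas 4 of 7 unfolded protein response genes and 3 of 11 folding genes do not.

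The 7 targeting genes ranged in mean from 6.14 to 120 CPM per kb. SRP14, which with SRP9 forms the part of the particle that pauses translation, had the highest mean, with 207, 61.4 and 91.4 CPM per kb in replicates 1, 2 and 3, but in replicate 2 it lay below SRP9 and SRP54. SRP14 was highest in replicate 1, as was SRP9, at 85.2, 66.9 and 63.5 CPM per kb. SRP54, the subunit that binds the signal sequence, had 39.5, 77.0 and 83.1 CPM per kb. Here replicate 1 was the lowest. The scaffold subunits SRP72 and SRP68 were lower, with means of 24.8 ± 3.47 and 14.3 ± 1.85 CPM per kb (SD, n = 3, here and below).

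The 2 subunits of the receptor that docks the particle at the ER membrane were unequal in RNA. SRPRA, the subunit that meets SRP54, had 54.9, 51.4 and 45.5 CPM per kb. SRPRB, its membrane anchor, had 7.61, 4.21 and 6.61 CPM per kb and was the lowest of the 7 targeting genes. Ranges did not overlap, and the log2 ratio of SRPRA to SRPRB was 2.98 ± 0.42, with SRPRA 7.87-fold higher and higher in each of 3 libraries (exact two-sided permutation p = 0.25 by sign flips, which no 3 libraries can go below, and 0.357 adjusted over 10 pairs). By the chi-square test, all 7 targeting genes were called as differing between libraries, and 1 of 7 without replicate 1, where the shares of all genes were 67.2% and 33.8%. Among genes with a mean count of 50 or more, the share with 3 libraries was 81.1%. SRPRA was among the genes of smallest spread, with an SD of log2 CPM of 0.14 (chi-square test with Benjamini-Hochberg adjustment, p = 0.0365).

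In the translocon, SEC61B, the small beta subunit of the channel, stood above the rest at 166.5, 76.1 and 108 CPM per kb. SEC61A1, the pore-forming subunit, had 72.2, 35.3 and 47.5 CPM per kb. Both were highest in replicate 1 and lowest in replicate 2, and the log2 ratio of SEC61A1 to SEC61B was -1.16 ± 0.06, with SEC61B 2.23-fold higher and higher in each library (exact two-sided permutation p = 0.25, adjusted 0.357). In CPM without length correction the direction reversed, to 0.81.

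SEC61G, the gamma subunit, was far less even. It lies on chromosome 7 (54752250 to 54759974, minus strand, GRCh38) and had 973, 44 and 32 counts, or 106, 15.0 and 13.3 CPM per kb. Replicate 1 stood alone at 7.92 times the lowest library, while between replicates 2 and 3 no difference was detected (chi-square test with Benjamini-Hochberg adjustment, p = 0.583). Its SD of log2 CPM, 1.66, was the largest of the 48 ER genes that averaged 10 CPM or more, against a median of 0.49 over all 7510 such genes. The transcript is GC-poor (36.1% GC), and no exon of another gene overlaps it on the opposite strand. The median log2 difference of replicate 2 from replicate 1 was 0.32 over all genes of similar GC content and -2.79 for SEC61G. The cause of its spread was not tested.

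The accessory translocon genes fell into opposite orders of the libraries. SEC62 and SEC63, which help post-translational transport through the channel, were lowest in replicate 1, at 13.7, 28.5 and 28.7 CPM per kb for SEC62 and 5.26, 10.2 and 9.38 for SEC63. SEC63 had the lowest mean of the translocon genes, though SSR2 and SSR4 lay below it in replicate 2 and SSR2 also in replicate 3. Genes of the translocon-associated protein complex SSR split between the 2 orders. SSR1 had 16.2, 24.5 and 22.04 CPM per kb, lowest in replicate 1. SSR3 had 24.98, 29.5 and 33.3 CPM per kb, in the same order relative to replicate 1. SSR2, at 17.1, 4.06 and 7.04 CPM per kb, and SSR4, at 16.9, 3.70 and 11.4, were highest in replicate 1 and lowest in replicate 2. These genes differ in GC content, with 60.8% for SSR4, 45.2% for SSR2 and 40.6% for SSR1. Over all genes of similar GC content, the median log2 difference of replicate 2 from replicate 1 was -1.37, -0.0016 and 0.27 respectively. The genes themselves differed by -2.16, -2.06 and 0.60. The part of GC content in the split was not tested. The log2 ratio of SSR1 to SSR4 ran from -0.06 in replicate 1 to 2.57 in replicate 2 and 0.93 in replicate 3 (mean 1.15 ± 1.33, exact two-sided permutation p = 0.5, adjusted 0.556). Its mean was 0.53 with the length of the longest transcript and 2.49 without length correction, and 1.75 and 0.43 without replicates 1 and 2. All 9 translocon genes were called as differing between libraries, and 4 of 9 without replicate 1, against 67.2% and 33.8% of all genes. At a mean count of 50 or more, the share with 3 libraries was 81.1%.

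No signal peptidase gene differed 2-fold between libraries. SPCS3, a subunit needed for cleavage, had 191, 185 and 191 CPM from 956, 294 and 249 counts, with the smallest SD of log2 CPM of the ER genes at 0.03 (chi-square test with Benjamini-Hochberg adjustment, p = 0.89). SPCS1, an accessory subunit, had 26.1, 27.4 and 35.6 CPM per kb. SPCS2 was the lowest of the 5 genes at 8.92, 16.4 and 14.4 CPM per kb. The catalytic subunit exists in 2 alternative forms, and SEC11C, a gene known to be high in plasma cells, was above SEC11A. SEC11C had 44.6, 42.1 and 64.6 CPM per kb and SEC11A 21.98, 27.3 and 33.5. Their ranges did not overlap, and the log2 ratio of SEC11A to SEC11C was -0.85 ± 0.21, with SEC11C 1.80-fold higher and higher throughout (exact two-sided permutation p = 0.25, adjusted 0.357). Of 4 plasma cell markers, SDC1, MZB1 and JCHAIN reached 1 CPM in every library and TNFRSF17 had 2, 0 and 0 counts. Their summed level was 59.2, 23.3 and 104 CPM, lowest in replicate 2 and highest in replicate 3. SEC11C had the same order, but between its replicates 1 and 2 no difference was detected (chi-square test with Benjamini-Hochberg adjustment, p = 0.463). MZB1 was the largest part of the summed marker level in each library, at 45.8 CPM in replicate 1 and 64.4 in replicate 3. It has 58.3% GC, and its log2 difference of replicate 2 from replicate 1 was -2.13. The median over all genes of similar GC content was -1.37. JCHAIN was instead lowest in replicate 1, with 9.43 CPM in replicate 2 and 26.1 in replicate 3. The order was not particular to these markers, since the B cell markers summed to 1663, 1120 and 1976 CPM. Neither the part of the plasma cell marker level in that of SEC11C nor that of GC content in the marker level was tested. The chi-square test called 4 of 5 genes (67.2% of all genes, 81.1% at a mean count of 50 or more), and 1 of 5 without replicate 1 (33.8%).

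Among oligosaccharyltransferase genes, the 2 alternative catalytic subunits overlapped in level per kb of merged exons. STT3A, which works at the translocon, had 26.9, 24.0 and 28.7 CPM per kb, and STT3B, which can act after translocation, had 30.04, 27.1 and 22.3. Their ranges overlapped, and the log2 ratio was 0.01 ± 0.30, negative in replicates 1 and 2 (exact two-sided permutation p = 1, adjusted 1). This depends on the length used: the ratio was 0.46 with the longest transcript and 0.57 without length correction (exact two-sided permutation p = 0.25 for both, unadjusted). STT3A was also among the genes of smallest spread (SD of log2 CPM 0.13).

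The shared, non-catalytic subunits were less even. DAD1 was the highest of the group at 199, 77.0 and 115 CPM per kb. RPN2 had 96.8, 23.9 and 33.2 CPM per kb, 4.06 times higher in its highest than in its lowest library. DDOST had 85.9, 18.9 and 38.6 CPM per kb, a ratio of 4.54. RPN1, the partner of RPN2, had 40.8, 20.2 and 20.4 CPM per kb. RPN1 lay below RPN2 in each library, the log2 ratio being -0.72 ± 0.50 (exact two-sided permutation p = 0.25, adjusted 0.357). With the longest transcript the ratio was -0.11 and without length correction -0.23 (exact two-sided permutation p = 0.75 for both), and the libraries no longer shared a sign. OSTC, which joins the STT3A form of the enzyme to the translocon, had 49.3, 26.04 and 36.5 CPM per kb.

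All 7 oligosaccharyltransferase genes were lower in replicate 2 than in replicate 1, as were 55.5% of the 7510 genes that averaged 10 CPM or more. In replicate 3, 6 of 7 were below replicate 1, against 53.6% of all genes. The median log2 difference from replicate 1 was -1.01 in replicate 2 and -0.79 in replicate 3, where the medians over all genes were -0.14 and -0.07. GC content also moved with the difference between replicates 2 and 1: among all genes its median ran from 0.32 in the most GC-poor of 8 equal bins to -1.37 in the most GC-rich. The oligosaccharyltransferase genes, whose median GC content was 48.8%, had median differences of -1.18 (replicate 2) and -0.69 (replicate 3) after the median of their GC bin was subtracted, a correction chosen after the values were seen.

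**Figure D2:**
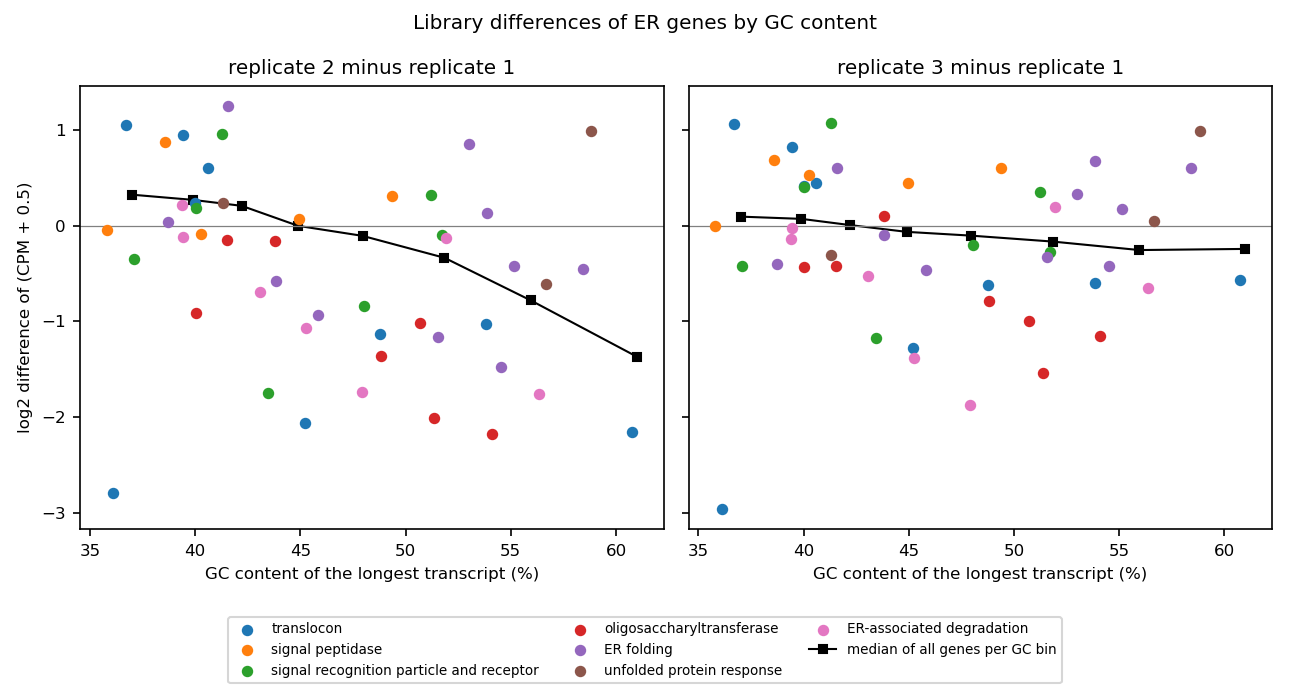
Log2 difference of (CPM + 0.5) of replicate 2 (left) and replicate 3 (right) from replicate 1 against the GC content of the longest transcript, for the 48 ER genes that averaged 10 CPM or more, coloured by role; black squares join the medians of all genes in 8 equal GC bins. The black line falls with GC content on the left, from 0.32 to -1.37, and little on the right; all 7 oligosaccharyltransferase genes lie below 0 on the left and SEC61G is the lowest point in both panels.

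Folding genes held the most abundant transcripts of the whole set. CALR, the soluble lectin chaperone calreticulin (chromosome 19, 12938578 to 12944489, plus strand), had 290, 318 and 464 CPM per kb. CANX, its membrane-bound relative calnexin, had 155, 369 and 236 CPM per kb. CALR lay above CANX in replicates 1 and 3 and below it in replicate 2, and the log2 ratio was 0.56 ± 0.67 (exact two-sided permutation p = 0.5, adjusted 0.556). Without length correction the mean ratio was -0.64. CALR has 53.9% GC and CANX 41.6%. Over all genes of similar GC content, the median log2 difference of replicate 2 from replicate 1 was -0.78 for CALR and 0.21 for CANX. The genes themselves differed by 0.13 and 1.25. The part of GC content in the ratio was not tested. Among all genes of known length that reached 1 CPM throughout, CALR and CANX were at percentiles 99.1 and 98.7 of CPM per kb.

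Disulphide isomerases came next. PDIA6 had 218, 114 and 159 CPM per kb, P4HB, the classical isomerase, 87.7, 64.2 and 133, and PDIA4 50.03, 90.5 and 63.2. PDIA3, which works with calnexin and calreticulin on glycoproteins, had 65.6, 43.9 and 61.5 CPM per kb. It was below P4HB in each library, and the log2 ratio was -0.69 ± 0.37 (exact two-sided permutation p = 0.25, adjusted 0.357), although the ranges of the 2 genes overlapped. With the longest transcript the ratio was -1.53. The oxidase gene ERO1A, which recharges the isomerases, was far lower, at 2.44, 2.50 and 1.83 CPM per kb, and no difference was detected across the libraries (chi-square test with Benjamini-Hochberg adjustment, p = 0.554).

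HYOU1, an ATP-driven chaperone, had 34.5, 25.7 and 39.0 CPM per kb. MANF, a secreted stress-induced protein, had 15.0, 6.59 and 11.9 CPM per kb and CRELD2, another secreted product of ER stress, 4.22, 1.46 and 3.12. SDF2L1, a cofactor of ER chaperones, was the lowest folding gene, with 8, 1 and 1 counts. Its promoter carries an ERSE-II match as those of HYOU1 and HERPUD1 do, and CRELD2 shares ERSE with CALR, so genes with the same motif lay far apart in mean level, at 0.908 CPM per kb for SDF2L1 and 33.0 for HYOU1, and at 2.93 for CRELD2 and 358 for CALR. Of the 10 folding genes tested, 9 were called as differing between libraries. The share of all genes was 67.2%, and 81.1% of those with a mean count of 50 or more. Without replicate 1 it was 7 of 10, where 33.8% of all genes were called. CALR, CANX, PDIA3, PDIA4, PDIA6, P4HB and HYOU1 were these 7, named after their values were seen. The 33.8% is no like share, since it includes genes of lower counts, at which the test calls fewer. No share at a mean count of 50 or more was computed without replicate 1.

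In the unfolded protein response group, ATF4 and PPP1R15A were abundant, and the other 5 genes averaged 6.04 CPM per kb or less. ATF4, the transcription factor of the EIF2AK3 branch whose output is controlled largely at translation, lies on chromosome 22 (39519695 to 39522685, plus strand) and had 180, 118 and 186 CPM per kb. PPP1R15A, the phosphatase subunit that reverses the translational block, had 72.7, 144 and 145 CPM per kb. It was lowest in replicate 1, and between replicates 2 and 3 no difference was detected (chi-square test with Benjamini-Hochberg adjustment, p = 0.424). ATF4 was instead lowest in replicate 2, and between replicates 1 and 3 no difference was detected (chi-square test with Benjamini-Hochberg adjustment, p = 0.596).

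Among classical targets of ATF4, TRIB3 and CHAC1 averaged 0.827 and 0.564 CPM per kb, below the 4.15 that was the median of expressed genes, whereas DDIT3, at 6.04, lay above it. In the wider ER list described below, the genes with a CARE match were ASNS, CREB3L2 and ATF3. Their means, 15.8, 11.6 and 5.06 CPM per kb, also lay above that median. ASNS ran from 8.09 in replicate 3 to 28.3 in replicate 1, and ATF3 had 4.04 in replicate 2. DDIT3, the pro-apoptotic factor CHOP, had 34, 11 and 13 counts, or 5.20, 5.29 and 7.63 CPM per kb. Its log2 ratio to ATF4 was -4.62 ± 0.33, with ATF4 24.6-fold higher and higher in each library (exact two-sided permutation p = 0.25, adjusted 0.357). TRIB3, a pseudokinase, had 21, 2 and 4 counts. CHAC1, a glutathione-degrading enzyme whose promoter holds a CARE match, had 1, 4 and 1 counts, the lowest of all 53 genes at a mean of 0.564 CPM per kb. These few counts allow between 0.00506 and 1.11 CPM in replicate 1 and between 0.685 and 6.44 CPM in replicate 2 (exact 95% Poisson intervals, counting error only).

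The sensors were low but measurable. ERN1, the kinase and RNase that splices XBP1 RNA, had 0.939, 0.810 and 0.918 CPM per kb from 51, 14 and 13 counts. ATF6, a membrane-bound factor released by cleavage, had 3.50, 4.14 and 2.82 CPM per kb. Neither differed detectably between libraries (chi-square test with Benjamini-Hochberg adjustment, p = 0.901 for ERN1 and 0.294 for ATF6). Of the 5 genes of the unfolded protein response group with enough counts, 2 were called, ATF4 and PPP1R15A, where 67.2% of all genes were.

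**Figure D3:**
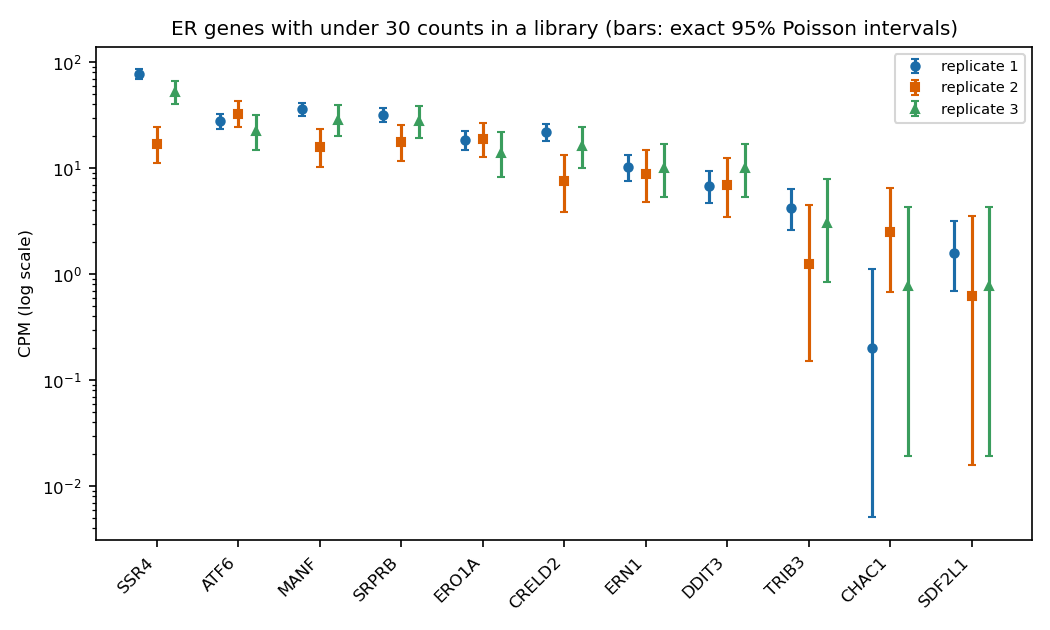
CPM on a log axis of the 11 ER genes with under 30 counts in at least 1 library, with exact 95% Poisson intervals, which cover counting error only. Intervals of the 3 libraries overlap for DDIT3, ERN1, ATF6 and ERO1A, while that of SSR4 in replicate 2 lies below the others; CHAC1 and SDF2L1 rest on single counts in 2 libraries each.

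Among degradation genes, VCP, the ATPase that pulls proteins out of the membrane (chromosome 9, 35056064 to 35073249, minus strand), was the highest and one of the most even, at 70.5, 64.6 and 80.8 CPM per kb. EDEM1, a lectin that marks misfolded glycoproteins, had 53.2, 25.3 and 20.3 CPM per kb. HERPUD1, a stress-induced membrane component of the degradation complex (chromosome 16, 56932048 to 56944863, plus strand), had 41.7, 12.4 and 11.3. Replicate 1 was the highest for both, 3.69 times the lowest for HERPUD1, and for HERPUD1 no difference was detected between replicates 2 and 3 (chi-square test with Benjamini-Hochberg adjustment, p = 0.443). SYVN1, the ubiquitin ligase HRD1, had 29.9, 8.81 and 19.0 CPM per kb, whereas its partner SEL1L had 9.16, 10.7 and 8.35. For SEL1L no difference was detected (chi-square test with Benjamini-Hochberg adjustment, p = 0.153). The ranges of these partners overlapped through replicate 2.

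The derlins, which help form the exit channel, had the lowest means of the group. DERL2 had 5.13, 4.72 and 5.05 CPM per kb, with an SD of log2 CPM of 0.06, next to SPCS3 in evenness. DERL1 had 10.2, 6.30 and 7.04 CPM per kb. DERL1 lay above DERL2 in every library, by a log2 ratio of 0.58 ± 0.30 (exact two-sided permutation p = 0.25, adjusted 0.357). In this group 5 of 7 genes were called as differing between libraries. The share was 67.2% of all genes and 81.1% of those with a mean count of 50 or more. Lower in replicate 2 than in replicate 1 were 6 of 7, against 55.5% of all genes that averaged 10 CPM or more. The median log2 difference was -0.69, or -0.90 after the median of the GC bin was subtracted, where the median over all genes was -0.14.

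**Figure D4:**
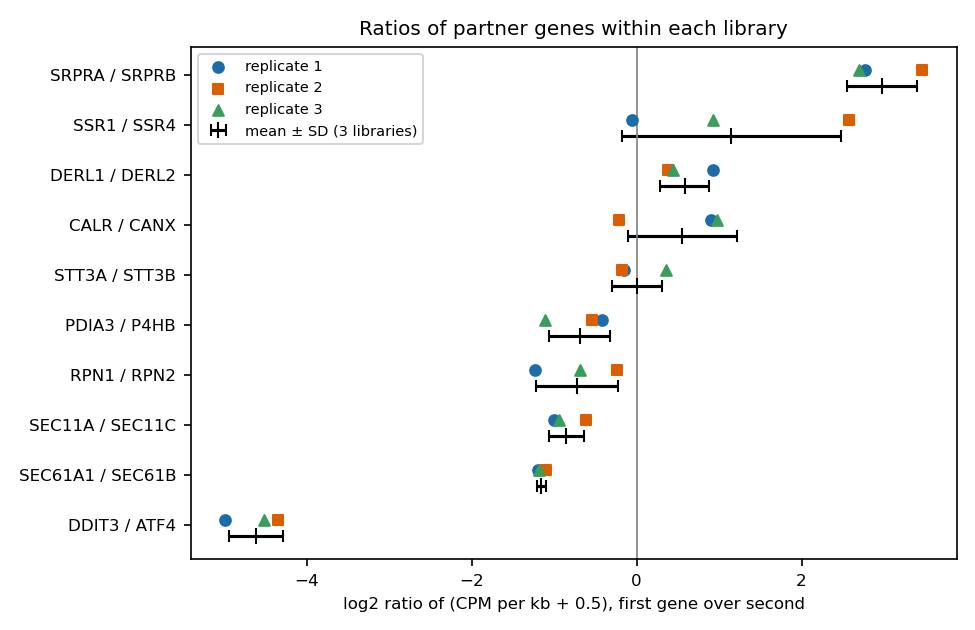
Log2 ratio of (CPM per kb + 0.5) within each library for 10 pairs of partner or alternative genes, the gene named on the left over the other, with mean ± SD of the 3 libraries in black. SRPRA/SRPRB and DDIT3/ATF4 lie farthest from 0, at 2.98 and -4.62; SEC61A1/SEC61B has the smallest SD, 0.06, and SSR1/SSR4 the largest, 1.33.

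Across all 7 groups, order by level was partly resolved. Of 46 neighbouring pairs in the ranking by mean CPM per kb within a group, 31 had overlapping ranges and 15 did not. The gaps included those of SEC61B over SEC61A1, SEC11C over SPCS1, VCP over EDEM1 and PPP1R15A over DDIT3. Of the 48 genes that averaged 10 CPM or more, 25 were highest in replicate 1 (43.1% of all such genes were), 8 in replicate 2 (28.7%) and 15 in replicate 3 (28.2%). The lowest value was in replicate 1 for 14 of them (34% of all such genes), in replicate 2 for 25 (40.5%) and in replicate 3 for 9 (25.5%). Of the 42 genes called as differing, 22 were no longer called without replicate 1. Over all genes, the share called was 67.2% of 10016 with 3 libraries and 33.8% of 8447 without replicate 1. How many of all called genes lost their call was not counted, so the 22 are not a trait of ER genes.

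Overlap with other genes touches part of the set. Exons of 24 of the 53 genes overlap exons on the opposite strand, among them SEC61A1 (with RUVBL1), SSR4 (with IDH3G), SYVN1 (with MRPL49) and DDIT3 (with MARS and MBD6), and since the strand setting of the counting is unknown, reads of such neighbours may be mixed. Among genes averaging 10 CPM or more with a GENCODE match, 43.5% have such an overlap. Of the ER genes at that level, the chi-square test called 20 of 23 with such an overlap and 22 of 25 without. The 67.2% of all genes tested is no like share, since it includes genes below that level. It was 81.1% at a mean count of 50 or more. Whether such reads move any value here was not tested. Pseudogenes also matter for 11 genes, ATF4, SRP9, SRP14 and OSTC among them, which have copies named after them in GENCODE, 31 in all, with which reads may be shared.

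The wider ER list held 47 other genes, all in the table, of which 44 reached 1 CPM in every library. The chi-square test called 29 of 42 tested (67.2% of all genes), and 12 of 39 without replicate 1. HSP90B1, the ER chaperone of the HSP90 family, was the highest at 585, 711 and 1034 CPM per kb, above CALR in every library. OST4, a small oligosaccharyltransferase subunit, had 270, 121.5 and 162 CPM per kb. HSPA5, the main ER chaperone BiP, had 116, 105.5 and 84.6 CPM per kb, below CALR in every library. WFS1 had no count in any library.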

How the data were processed

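The deposited table holds raw read counts per gene, and a second table holds log2 CPM values that the authors computed for the same genes. The submitters' processing notes name STAR, edgeR and the hg38 build, without versions; counting tool, strand setting and annotation are not stated in any source used here. Per the labels' protocols, RNA was extracted with Trizol and 1 µg went into an Illumina TruSeq RNA kit. Counts were scaled by TMM factors (edgeR 4.0.16, R 4.3.3). Log2 values are log2(CPM + 0.5), or log2(CPM per kb + 0.5) for pairs, which understates differences among low genes. GENCODE 29 (GRCh38) gave symbols, positions, lengths and GC content for 15668 of 15808 IDs; the 140 others stayed in the totals. Pairs were compared within libraries by sign-flip permutation. Alternatives were DESeq2 1.42.0 size factors, column totals, other filters, thresholds, pseudocounts and lengths, the deposited log2 values, and leaving out each library. Named with values in every library are the 3 highest and the lowest gene of each group, both genes of each pair, and the 5 genes of largest and of smallest spread; values of other members were chosen after they were seen. Members and lists were chosen with earlier results of these data known.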

Additional observations from a re-analysis of the deposited data

How the results depend on the processing

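No paired analysis was possible because the labels give 1 group. The number of ER genes at 1 CPM or more in every library was 51 under each scaling and without any one library, and 50 at a threshold of 5 CPM. Under other scalings and filters, 41 to 43 of the ER genes were called as differing between libraries. With DESeq2 size factors it was 42 of 50 (67% of all genes) and with column totals 41 of 50 (67.6%). Without a count filter it was 43 of 53 (51%), and at a mean count of 50 or more 41 of 46 (81.1%). When a library was left out, 21 to 36 were called, the lowest without replicate 1. The wider ER list gave 29 of 42 with all libraries. Without replicates 1, 2 and 3 in turn it gave 12 of 39, 23 of 42 and 26 of 42, where the shares of all genes were 33.8%, 45.2% and 56.2%. With replicate 1, the deepest library, left out, fewer counts and fewer libraries enter the test; the cause was not tested further. With the longest transcript in place of merged exons, the median log2 level per kb moved from 4.52 to 4.78 for translocon, from 4.82 to 5.39 for signal peptidase and from 5.67 to 6.11 for signal recognition particle genes. Leaving out libraries gave 4.76 to 5.01 for signal peptidase genes. Restricted to genes at 1 CPM or more, the unfolded protein response median was 2.34, against 1.98. Without length correction 2 pairs reversed, SEC61A1 to SEC61B (0.81) and CALR to CANX (-0.64), by the lengths of their exons. The STT3A to STT3B ratio, near 0, ranged from -0.17 to 0.10 when a library was left out, and was 0.46 with the longest transcript and 0.57 without length correction. No other pair changed sign, but 4 moved by over 1.5 times in fold: RPN1 to RPN2 (-0.11 with the longest transcript, against -0.72), PDIA3 to P4HB (-1.53 with it, against -0.69), SSR1 to SSR4 (0.53 with it and 2.49 without length correction, and 0.43 to 1.75 when a library was left out, against 1.15) and DDIT3 to ATF4 (-5.59 without length correction, against -4.62). Low depth in replicates 2 and 3 limits CHAC1, TRIB3 and SDF2L1 most.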
